A study of Mus musculus with 8 samples.

Results

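The motile cilium axoneme genes described here come from gene families whose products build, help assemble or are associated with the beating core of motile cilia. Whether each gene's product is part of that core was not checked. They were taken by symbol from the array's gene table: dynein heavy and intermediate chains and the light intermediate chain Dnali1, dynein arm assembly factors (Dnaaf), cilia and flagella associated proteins (Cfap), tektins (Tekt), radial spoke heads (Rsph), nexin-dynein regulatory complex subunits (Drc), and Ccdc40, Hydin, Spag6, Spag16, Spag17 and Tppp3. In all, 68 genes on 90 probe sets fit this rule, the probe set with the highest mean log2 value stood for each gene, and 65 genes with a mean of at least 6 were kept, of 15599 genes at that level and 18820 genes measured. The 3 genes left out were Cfap97d1, Dnaaf6 and Dnaaf6b. Just inside the limit lay Tekt3 with a mean log2 value of 6.004 and Cfap299 with 6.17, and just outside it lay Dnaaf6b with 5.69. A further 6 genes of the same families, Ccdc39, Dnaaf1, Dnaaf2, Dnah11, Rsph3a and Rsph3b, were not analysed here because their probe sets carry several gene symbols.

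RNA of whole lungs from FVB mice aged 8 to 12 weeks, of both sexes, was hybridized to 8 arrays, each holding a pool of 3 mice. CCSP-p52 mice carry CCSP-rtTA with CCSP-tTS/(tet-O)7-FLAG-p52, so that doxycycline (dox) switches on FLAG-tagged p52, the processed form of the NF-kappaB subunit p100, in airway epithelium under the club cell CCSP promoter. They came from separate founder lines, and WT mice were littermates negative for the genotype. All mice of all groups drank 2 g/L dox with 2% sucrose for 1 week. The groups were WT dox, CCSP-p52 dox, WT LPS and CCSP-p52 LPS, with 2 pools each, and the LPS groups were harvested 48 hours after intratracheal lipopolysaccharide (LPS), a bacterial endotoxin.

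A motile cilium has a ring of doublet microtubules around a central pair. Dynein arms on each doublet pull on its neighbour, the nexin-dynein complex and the radial spokes turn this sliding into a wave, and tektins stiffen the doublet from inside. In the lung these structures belong to the multiciliated cells of the airways, whose beating carries mucus out, and most of the genes are switched on together when such a cell differentiates, under the transcription factors FOXJ1 and RFX.

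Values are log2 intensities after normalization of the arrays to 1 distribution, and a logFC is a difference of mean log2 values. In whole lung, fewer cells of a type and less RNA per cell cannot be told apart. Nfkb2, the gene for p100 and p52, lay at 10.20 and 10.33 in the CCSP-p52 pools without LPS, where the WT pools lay at 9.51 and 9.58. After LPS it lay at 10.83 and 10.56 in WT and at 11.28 and 10.53 in CCSP-p52 pools. Its CCSP-p52 pools lay above the WT pools without LPS and overlapped them after LPS. The array WT LPS pool 2 stood apart: the level summed over 9 genes of basal and squamous epithelium was 13.94 there on the log2 scale and 9.61 to 10.002 on the other 7 arrays, with Krt5 at 11.59 and Krt13 at 11.71. The main counts and medians are therefore also given without it, which leaves WT LPS with a single array that the fit assumes to vary like the other groups. The multiciliated cell was represented in every pool, with Foxj1 between 8.44 and 8.93 and Tppp3, a microtubule-binding protein abundant in multiciliated cells, between 10.99 and 12.57.

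Promoters were read because the members are known to be induced as a programme. RefSeq (GRCm38.p6) gave promoter entries, each from 250 bases before to 50 after a gene's start, for 56 of the 65 genes, and Cfap299, Cfap53, Cfap54, Cfap65, Cfap97, Dnah3, Rsph1, Rsph4a and Tppp3 had none. The letters GTTGCC, an arm of the X-box motif bound by RFX factors, stood on either strand in 22 of the 56 genes (39.3%) and in 14.1% of all 27025 genes of the table. Among the 12257 measured genes with a mean of at least 6 the share was 14.6%. GTTNCC, which includes every GTTGCC match, was present in 43 of the 56 (76.8%) against 48.8% of all genes, and TGTTTNC, a forkhead core of the family of FOXJ1, in 19 (33.9%) against 22.8%. These matches describe sequence and are not measured binding. The following stretches, the 120 bases before the start read on the gene's strand, are shown because they hold GTTGCC or its reverse complement GGCAAC, in capitals, in genes of different parts of the axoneme: the tektin Tekt2 (chr4:126325689-126325808, minus strand), Cfap20dc (chr14:8666291-8666410, minus), Cfap161 (chr7:83794840-83794959, minus), and the central apparatus genes Spag16 (chr1:69826850-69826969, plus) and Hydin (chr8:110266857-110266976, plus).
Tekt2: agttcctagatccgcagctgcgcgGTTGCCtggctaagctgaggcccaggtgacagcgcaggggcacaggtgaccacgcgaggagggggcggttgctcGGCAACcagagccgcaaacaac
Cfap20dc: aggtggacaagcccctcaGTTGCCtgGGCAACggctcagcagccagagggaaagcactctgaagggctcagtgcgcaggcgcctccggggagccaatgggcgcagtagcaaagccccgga
Cfap161: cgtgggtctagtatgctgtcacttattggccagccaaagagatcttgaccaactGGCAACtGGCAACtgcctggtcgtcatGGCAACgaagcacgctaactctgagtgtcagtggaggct
Spag16: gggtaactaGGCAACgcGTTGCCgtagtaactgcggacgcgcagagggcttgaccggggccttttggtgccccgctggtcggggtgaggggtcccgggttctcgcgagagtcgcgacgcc
Hydin: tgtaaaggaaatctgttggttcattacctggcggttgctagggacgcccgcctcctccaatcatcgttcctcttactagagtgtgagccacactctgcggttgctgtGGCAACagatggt

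The effect of LPS was asked first, over both genotypes, in a linear model with p52 and LPS as factors. After LPS, 14 of the 65 axoneme genes were lower at a limma adjusted p under 0.05, or 21.5%, where 24.7% of all genes at this level were lower, and none was higher, where 15.2% of all genes were. The share of genes that fell was thus near the background. The median logFC of the 65 genes was -0.40 and 60 were negative, from -1.19 for Tppp3 to 0.21 for Cfap410, while the median over all genes was -0.03 with 53.8% negative. At an unadjusted p under 0.05, 36 genes were lower, against 30.6% of all genes. Of the 14 genes, 6 kept the call with each array left out in turn: Tppp3, Tekt2, Dnah8, Cfap20, Cfap20dc and Cfap52. The other 8 lost it without at least 1 array, Dnaaf4 and Tekt5 in 3 of the 8 fits, Rsph4a in 5, Dnah9, Drc7, Cfap161 and Cfap74 in 6 and Dnah2 in 7, with adjusted p up to 0.14. The standard errors of the axoneme genes were also larger, with a median of 0.14 against 0.09 for all genes.

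**Figure D1:**
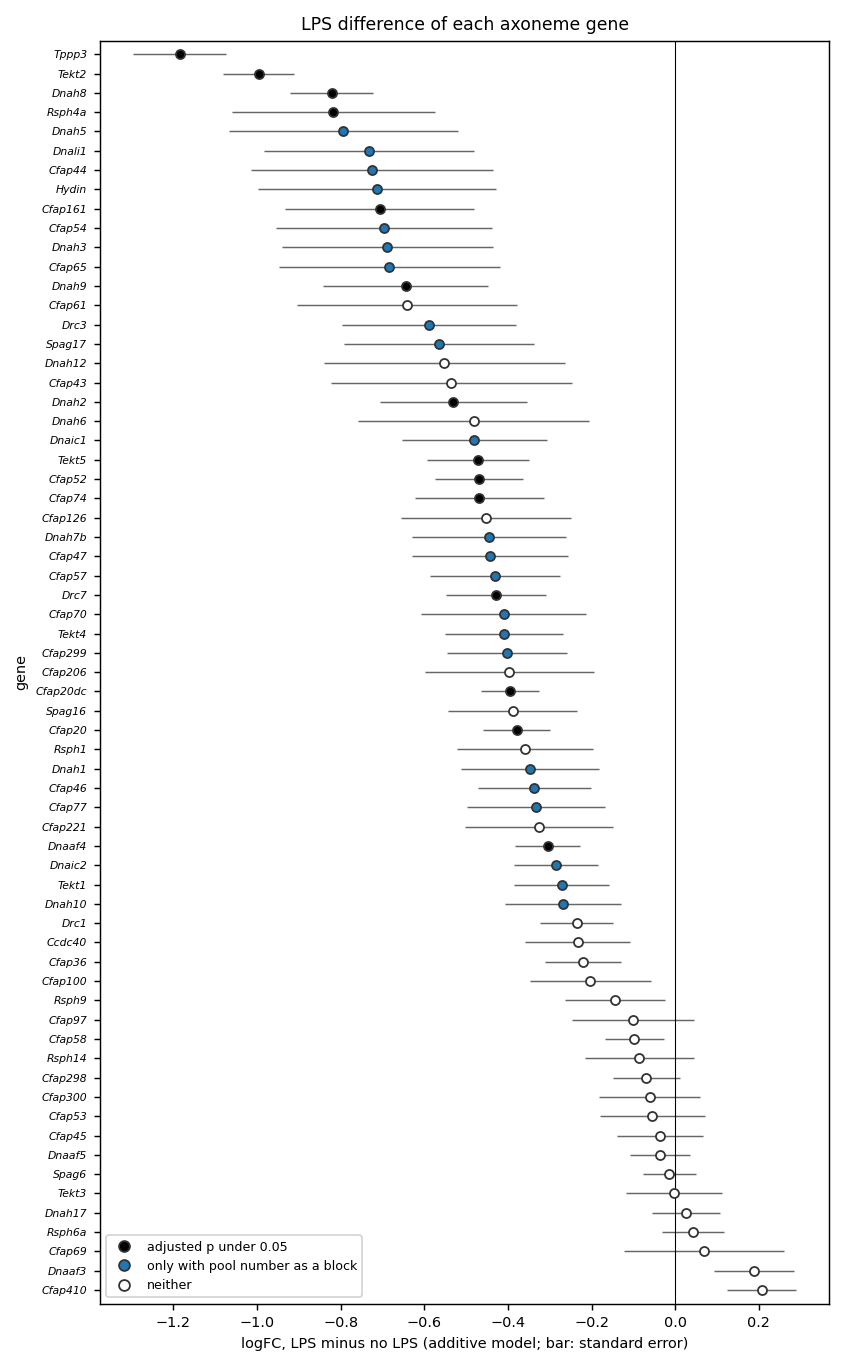
Each row is an axoneme gene, ordered by its logFC between LPS and no LPS over both genotypes (x axis, log2 scale, bars are standard errors of the additive model over 8 arrays). Black points passed an adjusted p under 0.05 (14 genes), blue points passed it only with the pool number as a block (22 genes) and white points passed neither, and 60 of 65 genes lie left of 0.

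Tppp3, Tekt2 and Dnah8 also passed in each genotype as a contrast of the 4-group model over all 8 arrays. These calls were less firm: with CCSP-p52 lungs fitted alone Tekt2 and Dnah8 had limma adjusted p = 0.053 and 0.065, after loss of either CCSP-p52 dox pool all 3 were at 0.089 to 0.16 in CCSP-p52 lungs, and after loss of WT dox pool 2 all 3 were at 0.0501 to 0.075 in WT lungs. Loss of WT dox pool 1 left Tekt2 at 0.052 and Dnah8 at 0.077 in WT lungs, and Dnah8 in CCSP-p52 lungs was at 0.063 to 0.065 without either WT dox pool or CCSP-p52 LPS pool 1. Tppp3 had log2 values of 12.39 and 12.57 in the WT dox pools, 12.29 and 12.22 in the CCSP-p52 dox pools, 10.99 and 11.40 in the WT LPS pools and 11.05 and 11.29 in the CCSP-p52 LPS pools. The 4 LPS arrays lay well below the 4 others, with a logFC of -1.19 (standard error 0.11, limma adjusted p = 2.92e-04), a 2.27-fold difference. Tekt2, a tektin of the doublet microtubules, had 8.10 and 8.01 in WT dox, 8.07 and 8.00 in CCSP-p52 dox, 6.88 and 7.16 in WT LPS and 6.98 and 7.17 in CCSP-p52 LPS. Again no LPS array overlapped the others, with a logFC of -0.996 (standard error 0.09, limma adjusted p = 2.06e-04). A second probe set of Tekt2 did not share the fall: its logFC was -0.01 (standard error 0.15), so the value rests on 1 of 2 probe sets, and their mean gave -0.50 (limma adjusted p = 0.0043).

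Among the outer dynein arm genes, which encode the motors that set beat frequency, 2 of 6 fell, Dnah8 and Dnah9, and the median logFC was -0.56. Dnah8, a heavy chain best known from sperm flagella, had log2 values of 8.13 and 8.09 in WT dox, 8.05 and 8.00 in CCSP-p52 dox, 7.45 and 7.00 in WT LPS and 7.27 and 7.26 in CCSP-p52 LPS. Its arrays separated fully by LPS (logFC -0.82, standard error 0.10, limma adjusted p = 7.61e-04), whereas its second probe set, of lower mean, gave a logFC of -0.12 (standard error 0.13) and the mean of both -0.47 (limma adjusted p = 0.0087). With probe sets averaged, Dnah8 missed the threshold in CCSP-p52 lungs (limma adjusted p = 0.14) and Tekt2 in WT lungs (0.064). Dnah5, the airway heavy chain most often altered in primary ciliary dyskinesia, had 8.61 and 9.13 in WT dox, 8.53 and 8.60 in CCSP-p52 dox, 7.25 and 8.36 in WT LPS and 7.67 and 8.40 in CCSP-p52 LPS. Its LPS arrays also lay below all others, but the pools within each LPS group were far apart, and the logFC of -0.79 (standard error 0.27) missed the threshold (limma adjusted p = 0.055). Dnah9, the distal partner of Dnah5 on the outer arm, was 7.29 to 8.16 after LPS and 8.31 to 8.72 without it (logFC -0.64, standard error 0.20, limma adjusted p = 0.037). The intermediate chains Dnaic1 and Dnaic2 had logFC of -0.48 and -0.29 and did not pass, and Dnah17, also a sperm flagellar chain, had a logFC of 0.03.

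**Figure D2:**
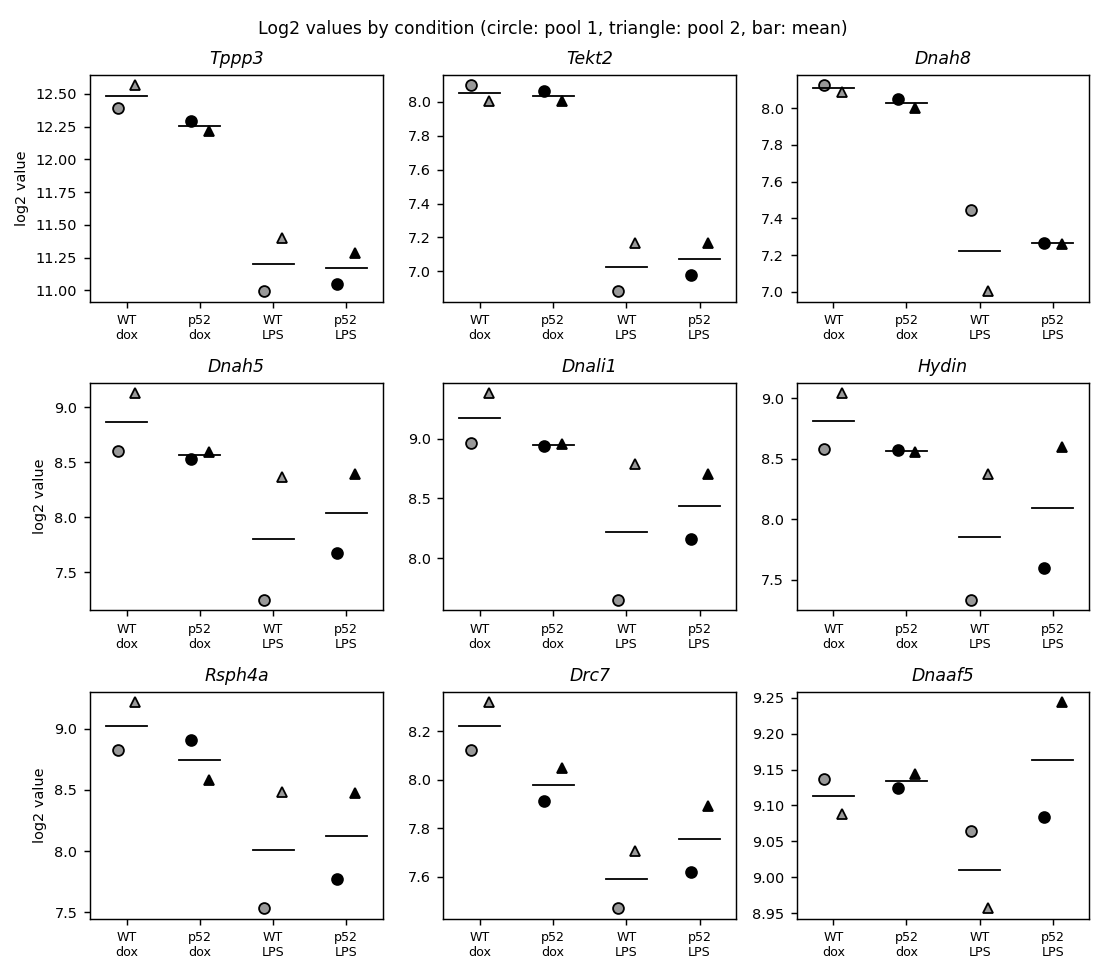
Log2 values (y axes, which do not start at 0 and differ between panels) of 9 axoneme genes in the 4 conditions, with circles for pool 1, triangles for pool 2, grey for WT, black for CCSP-p52, and bars for means. Tppp3, Tekt2 and Dnah8 separate by LPS, though the WT LPS pools of Tppp3 (10.99 and 11.40) and Dnah8 (7.45 and 7.00) lie apart. Dnah5, Dnali1, Hydin and Rsph4a show pools of an LPS condition 0.55 to 1.14 apart, and Dnaaf5 shows no separation.

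All 8 inner dynein arm genes, whose motors shape the waveform, were negative after LPS with a median logFC of -0.51, but only Dnah2 passed (logFC -0.53, standard error 0.18, limma adjusted p = 0.049). Dnah3, the inner arm gene of highest mean, had log2 values of 8.98 and 9.53 in WT dox, 9.03 and 8.95 in CCSP-p52 dox, 7.95 and 8.82 in WT LPS and 8.04 and 8.92 in CCSP-p52 LPS. Dnali1, the light intermediate chain, was 8.94 to 9.38 without LPS and 7.65 to 8.79 with it. For both genes every LPS array was below every other array, and their logFC of -0.69 and -0.73 (both standard errors 0.25) had limma adjusted p = 0.068 and 0.055. All 5 probe sets of Dnah3 were lower after LPS, with logFC from -0.90 to -0.54.

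The assembly factors, which fold and load dynein arms in the cytoplasm, had the median logFC nearest to 0 of all roles, -0.04 over 3 genes. Dnaaf5, the one of highest mean, had log2 values of 9.14 and 9.09 in WT dox, 9.12 and 9.14 in CCSP-p52 dox, 9.06 and 8.96 in WT LPS and 9.08 and 9.24 in CCSP-p52 LPS. Its groups overlapped (logFC -0.04, standard error 0.07). Dnaaf4 had 7.00 and 6.91 in WT dox, 6.83 and 6.95 in CCSP-p52 dox, 6.56 and 6.80 in WT LPS and 6.51 and 6.60 in CCSP-p52 LPS. The LPS arrays lay below the others, and the fall passed (logFC -0.30, standard error 0.08, limma adjusted p = 0.017). Dnaaf3 had a positive logFC of 0.19 that did not.

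Among the 5 radial spoke genes only Rsph4a, a spoke head protein, fell. It had log2 values of 8.83 and 9.22 in WT dox, 8.91 and 8.58 in CCSP-p52 dox, 7.53 and 8.48 in WT LPS and 7.77 and 8.47 in CCSP-p52 LPS. The second LPS pools came close to the lowest array without LPS, and the logFC was -0.82 (standard error 0.24, limma adjusted p = 0.033). Rsph1, Rsph9, Rsph14 and Rsph6a had logFC from -0.36 to 0.04. Of the 4 genes of the nexin-dynein complex and the ruler that spaces it, Drc7 fell. It had 8.12 and 8.32 in WT dox, 7.91 and 8.05 in CCSP-p52 dox, 7.47 and 7.71 in WT LPS and 7.62 and 7.89 in CCSP-p52 LPS. The second CCSP-p52 LPS pool came close to the lowest array without LPS (logFC -0.43, standard error 0.12, limma adjusted p = 0.025), and without WT LPS pool 2 the limma adjusted p was 0.053. Drc3, Drc1 and Ccdc40 had logFC of -0.59, -0.24 and -0.23.

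The central apparatus genes, which organize the central pair, had a median logFC of -0.48 and none of the 4 passed. Hydin, a giant protein of a central pair projection, had log2 values of 8.58 and 9.04 in WT dox, 8.57 and 8.56 in CCSP-p52 dox, 7.33 and 8.38 in WT LPS and 7.60 and 8.59 in CCSP-p52 LPS. The second CCSP-p52 LPS pool was level with the CCSP-p52 dox pools, so the groups overlapped (logFC -0.71, standard error 0.28, limma adjusted p = 0.089). Spag6 stayed between 6.85 and 6.99 on all arrays, while Spag17 ranged from 6.46 to 7.95.

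The other tektins had logFC from -0.47 to -0.003, and the 29 Cfap genes from -0.73 to 0.21. Tekt5, best known from sperm flagella, had 9.27 and 9.10 in WT dox, 9.26 and 9.02 in CCSP-p52 dox, 8.82 and 8.34 in WT LPS and 8.80 and 8.79 in CCSP-p52 LPS (logFC -0.47, standard error 0.12, limma adjusted p = 0.019). Its LPS arrays lay below all others, and Tekt4, Tekt1 and Tekt3 had logFC of -0.41, -0.27 and -0.003 without passing. Of the Cfap genes 5 fell: Cfap161, Cfap52, Cfap74, Cfap20dc and Cfap20. Cfap20, a doublet microtubule protein, had log2 values of 9.84 and 9.80 in WT dox, 9.73 and 9.59 in CCSP-p52 dox, 9.30 and 9.30 in WT LPS and 9.40 and 9.44 in CCSP-p52 LPS. These close values gave a logFC of -0.38 with a standard error of 0.08 (limma adjusted p = 0.008). Cfap52 had 8.00 and 8.25 in WT dox, 8.04 and 7.87 in CCSP-p52 dox, 7.44 and 7.84 in WT LPS and 7.45 and 7.56 in CCSP-p52 LPS, a logFC of -0.47. Cfap20dc had 6.70 and 6.71 in WT dox, 6.85 and 6.88 in CCSP-p52 dox, 6.35 and 6.26 in WT LPS and 6.37 and 6.57 in CCSP-p52 LPS, a logFC of -0.40. Neither gene overlapped between LPS and no LPS. Cfap44 had the most negative logFC of the family, -0.73 (standard error 0.29), and did not pass.

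Counting arrays rather than fitting, all 4 LPS arrays lay below all 4 arrays without LPS for 21 of the 65 genes (32.3%), against 25.9% of all genes. Of the 14 genes that passed, 13 were among these 21. Without WT LPS pool 2, the remaining 3 LPS arrays lay below for 25 of the 65 genes (38.5%), against 27.8% of all genes, and 16 genes fell in the fit, against 20.9% of all genes, with a median logFC of -0.44. Without CCSP-p52 LPS pool 2, 39 genes fell, against 29.6% of all genes, and 1 rose, against 19.4%. Without each of the arrays of the WT dox and CCSP-p52 dox pools and of the first LPS pools 6 to 8 genes fell, against 17.4% to 21% of all genes.

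**Figure D3:**
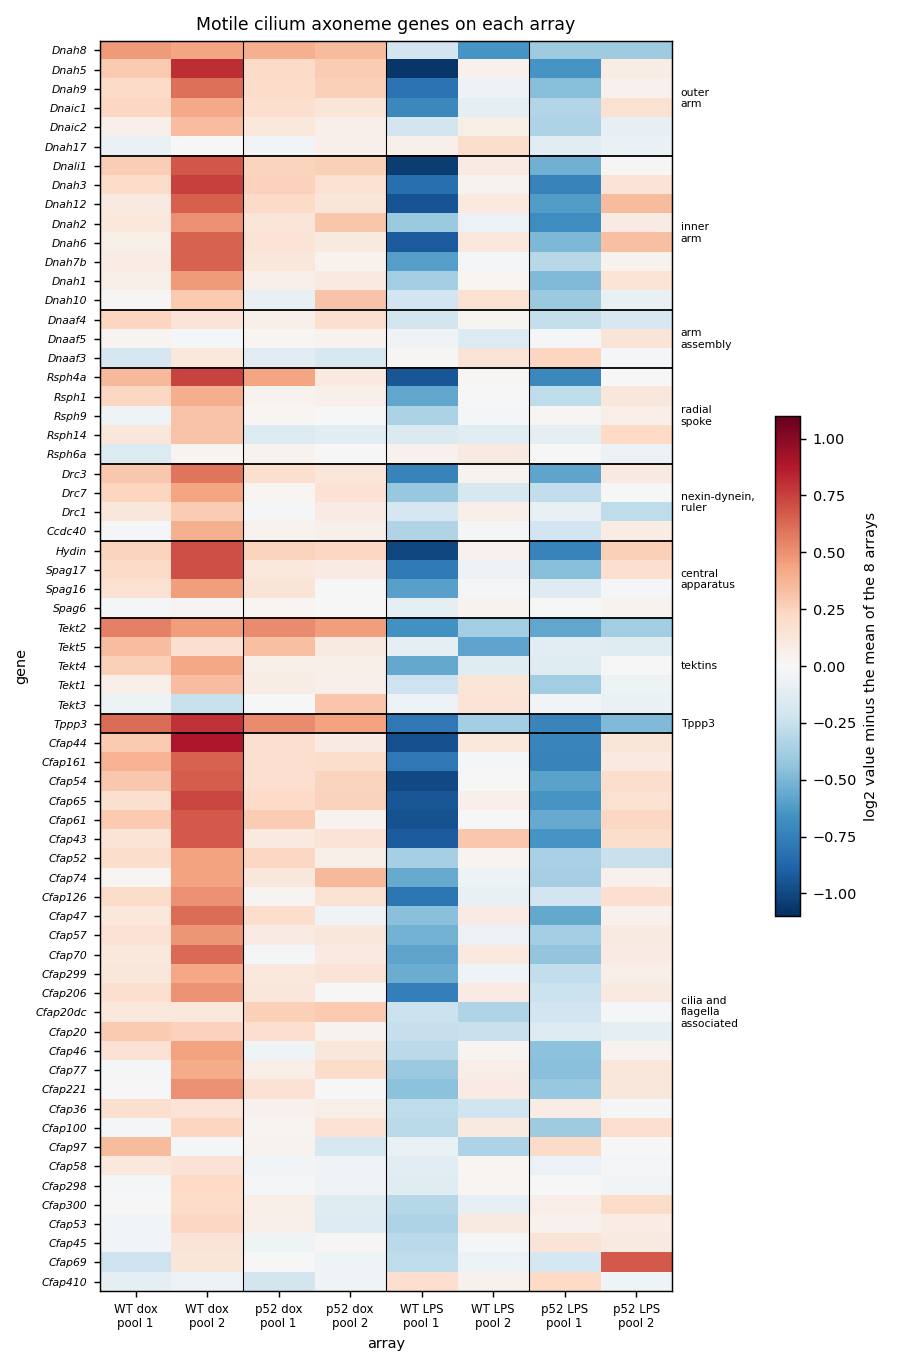
Log2 value of each axoneme gene (rows, grouped by role) on each of the 8 arrays (columns) minus the gene's mean over the 8 arrays, from blue (lower) to red (higher). WT dox pool 2 is the reddest column, the highest array for 47 of 65 genes, WT LPS pool 1 the bluest, the lowest for 44, and both second LPS pools are pale.

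The axoneme genes varied together between pools of the same condition. WT dox pool 2 was the highest array for 47 of the 65 genes and WT LPS pool 1 the lowest for 44, with CCSP-p52 LPS pool 1 the lowest for another 11. Taking each gene's deviation from its own mean, the medians were 0.13 and 0.43 in WT dox, 0.11 and 0.10 in CCSP-p52 dox, -0.41 and 0.02 in WT LPS and -0.34 and 0.07 in CCSP-p52 LPS, pool 1 first. Both second LPS pools thus lay near the gene means, and both first LPS pools well below. Over all genes these medians stayed between -0.04 and 0.04, but normalization to 1 distribution by itself tends to hold them near 0.

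Pool 2 exceeded pool 1 for 56 of 65 genes in WT dox (median difference 0.29 log2), for 59 in WT LPS (0.41) and for 54 in CCSP-p52 LPS (0.33), and for 32 in CCSP-p52 dox (-0.01). The share of all genes with pool 2 above pool 1 was 44.3%, 40.7%, 48.6% and 49.9% in these conditions. In all 4 conditions pool 2 was above pool 1 for 24 of the 65 genes (36.9%), against 11.6% of all genes. Tekt5, Dnah8 and Cfap97 were lower in pool 2 in every condition. The cause of the shared pool difference was not tested. The sources used here do not state what pools with equal numbers have in common.

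**Figure D4:**
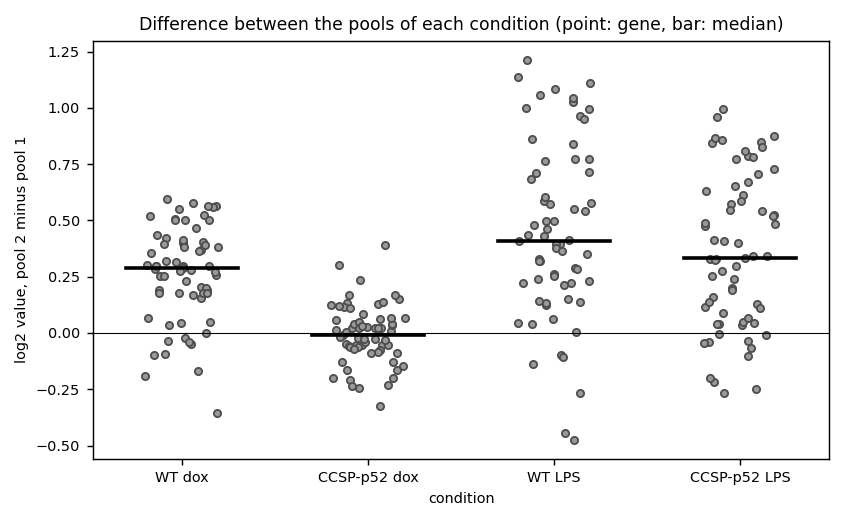
Difference in log2 value between pool 2 and pool 1 (y axis) of each axoneme gene (points, spread sideways for sight) in each condition, with bars for the medians of 65 genes. The medians are 0.29 in WT dox, -0.01 in CCSP-p52 dox, 0.41 in WT LPS and 0.33 in CCSP-p52 LPS.

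Deviations of equally numbered pools were weakly correlated over all genes (0.14 to 0.35), so the LPS comparison was also fitted with the pool number as a block. The block assumes 1 pool shift for every condition, but the median shift of the axoneme genes was -0.01 in CCSP-p52 dox and 0.29 to 0.41 in the others. In this fit 36 of the 65 axoneme genes fell (55.4%), against 26.8% of all genes: the 14 above and 22 more, among them Dnah5 (limma adjusted p = 0.012), Dnah3 (0.017) and Hydin (0.024). By role these were 5 of 6 outer arm, 6 of 8 inner arm, 1 of 3 assembly, 1 of 5 radial spoke, 2 of 4 nexin-dynein and ruler, 2 of 4 central apparatus, 4 of 5 tektin and 14 of 29 Cfap genes, and Tppp3. Within pool number 1 the median LPS difference over both genotypes was -0.51 with 61 of 65 genes negative, and within pool number 2 it was -0.24 with 56 negative. Leaving out an array in turn, the number of genes that fell with the block was 14 and 15 when WT dox pool 1 and WT dox pool 2 were dropped, 13 for CCSP-p52 dox pool 1, 18 for WT LPS pool 1, 20 for CCSP-p52 LPS pool 1, 25 for WT LPS pool 2, 43 for CCSP-p52 LPS pool 2 and 45 for CCSP-p52 dox pool 2. The share of all genes that fell was 18.7% to 20.7% in the first 6 of these fits, 31.4% and 25.5% in the last pair. The CCSP-p52 second pools differed least, with a median of -0.03 and 35 of 65 genes lower after LPS.

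The next question was whether the LPS difference depended on genotype. In WT lungs 9 of the 65 genes fell after LPS, against 16.7% of all genes, and none rose, against 9.21%. In CCSP-p52 lungs 3 fell, Tppp3, Tekt2 and Dnah8, against 6% of all genes, and none rose, against 4.99%. The median logFC was -0.55 in WT and -0.24 in CCSP-p52 lungs, and 58 of the 65 genes were less negative or more positive in CCSP-p52. Both medians rest on single pools: the first was -0.29 without WT LPS pool 1 and -0.70 without WT LPS pool 2, and the second was -0.02 when CCSP-p52 LPS pool 1 was dropped and -0.47 when pool 2 of that group was. The difference itself passed for no gene: the interaction term had 0 calls in either direction among the 65 genes and 0 (0%) among all genes, the smallest limma adjusted p among the 65 was 0.91, and 4 genes, Tekt4, Cfap36, Rsph14 and Cfap300, had an unadjusted p under 0.05. The median interaction of 0.34 fell to 0.04 without WT LPS pool 1, and without WT LPS pool 2 it was 0.49. With the pool number as a block, 33 genes fell in WT lungs, against 20.4% of all genes, and 5 in CCSP-p52 lungs, against 9.52%, and the interaction again had none. Without WT LPS pool 2, where 1 array stands for WT LPS, 18 genes fell in WT lungs, against 7.05% of all genes.

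Genotype alone moved none of the 65 genes past a cut-off of 0.41 for the size of the logFC, the limit the study set for rises, together with an unadjusted p of at most 0.05. Over both LPS states 0 were lower, against 0.0449% of all genes, and 0 higher, against 0.205%, with a median logFC of -0.02 and 1 gene, Cfap20dc, at an unadjusted p under 0.05 (logFC 0.16). Without LPS, 0 were lower against 0.135% and 0 higher against 0.564%. With LPS, 0 were lower against 0.891% and 0 higher against 0.897%. The smallest limma adjusted p of the 65 genes in these comparisons was 0.69. The medians had opposite signs in the LPS states, -0.17 without LPS with 57 genes lower in CCSP-p52 and 0.13 with LPS with 51 higher. These rest on single pools: without WT dox pool 2 the first was -0.03, and without WT LPS pool 1 the second was -0.15. With the pool number as a block, Cfap126 alone was past the cut-off, higher in CCSP-p52 with LPS (logFC 0.43), and its limma adjusted p was 0.545. Without WT LPS pool 2 the second median was 0.31, and, with 1 array for WT LPS, 10 genes were higher in CCSP-p52 at the cut-off, against 1.42% of all genes, the smallest limma adjusted p being 0.87. Within pool number 1 the median difference of CCSP-p52 from WT without LPS was -0.01, and within pool number 2 it was -0.33. With LPS it was 0.15 within pool number 1, with 51 of 65 genes higher, and 0.09 within pool number 2, with 43 higher.

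Rsph14, a spoke-associated protein, and Cfap36 were the members with the smallest p for genotype without and with LPS. Rsph14 was 7.21 and 7.40 in WT dox, 6.94 and 6.97 in CCSP-p52 dox, 6.93 and 6.97 in WT LPS and 6.98 and 7.31 in CCSP-p52 LPS. Its CCSP-p52 pools were the lower pair without LPS (logFC -0.35, standard error 0.13) and the higher pair after it. Cfap36 was 8.46 and 8.44 in WT dox, 8.33 and 8.35 in CCSP-p52 dox, 8.01 and 8.07 in WT LPS and 8.37 and 8.26 in CCSP-p52 LPS, a logFC of 0.28 (standard error 0.09) after LPS, under the cut-off in size.

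Regulators of the multiciliated programme were set beside the axoneme genes. Foxj1, the master factor of motile ciliogenesis, had log2 values of 8.68 and 8.93 in WT dox, 8.67 and 8.85 in CCSP-p52 dox, 8.44 and 8.83 in WT LPS and 8.64 and 8.74 in CCSP-p52 LPS. These ranges overlapped (logFC -0.12, standard error 0.11, limma adjusted p = 0.44). Rfx3, an X-box binding factor, fell from 8.41 to 8.64 without LPS to 8.03 to 8.13 with it (logFC -0.41, standard error 0.07, limma adjusted p = 0.0035). Gmnc, which starts the multiciliated fate, and Myb, which acts early in it, fell with logFC of -0.62 and -0.40. With Rfx3 these were the 3 of 10 regulators that passed, where 24.7% of all genes were lower. Over the 10 regulators the median logFC was -0.07 and 6 were negative.

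Of 38 other motile cilium genes measured, 9 fell and none rose after LPS, with a median logFC of -0.37. With the pool number as a block 20 fell. Of all genes, 24.7% fell and 15.2% rose, and 26.8% fell with the block, so 9 of 38 was near the background. Their median deviations followed the axoneme genes on every array, at 0.14 and 0.44 in WT dox, 0.09 and 0.04 in CCSP-p52 dox, -0.54 and 0.03 in WT LPS and -0.35 and 0.04 in CCSP-p52 LPS. Of 31 intraflagellar transport and primary cilium genes, which most cell types use, 18 fell and 2 rose, Ift57 and Kif3b, with a median of -0.31, and 18 fell with the block.

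**Figure D5:**
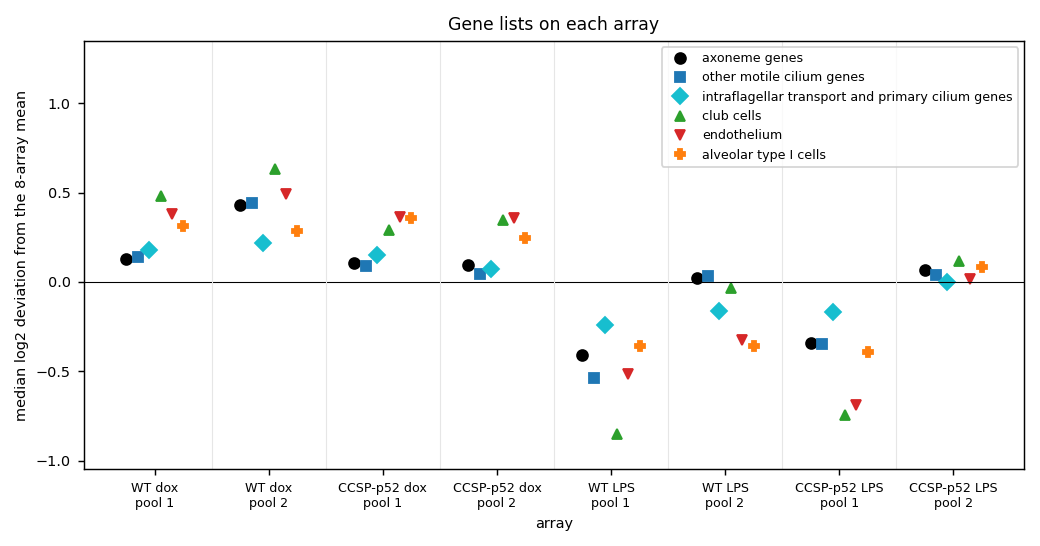
Median log2 deviation from the 8-array gene means (y axis) of the axoneme genes (black circles) and of 5 other gene lists on each array (x axis). The axoneme and other motile cilium genes lie together on every array. Every list plotted is lowest in both first LPS pools, some by narrow margins.

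Other cell types of the lung moved with LPS too, and their part in the axoneme values was not tested. All 11 neutrophil genes measured rose, with a median logFC of 3.66 and a summed log2 level of 14.76 to 15.22 after LPS against 11.17 to 11.70 without it. Of 8 endothelial and 8 alveolar type I genes 7 each fell. Club cell genes, which mark the airway cells beside the multiciliated cells, fell for 5 of 9 and rose for 2, Krt8 and Krt18. Their median deviations were -0.85 and -0.04 in the WT LPS pools and -0.74 and 0.12 in the CCSP-p52 LPS pools. The first pools were again the lower ones. Endothelial genes showed the same order, at -0.515 and -0.327 in WT LPS and -0.687 and 0.014 in CCSP-p52 LPS pools. Alveolar type I genes did so in CCSP-p52 LPS pools, at -0.39 and 0.083. In WT LPS pools they were level, at -0.361 and -0.359. Scgb3a2, a club cell secretoglobin, was 6.79 and 6.93 in the first LPS pools and 8.25 and 8.72 in the second, and 9.35 to 10.02 without LPS. Scgb1a1, the gene for CCSP itself, ranged from 13.26 to 13.77 over the 8 arrays and did not pass (logFC -0.25, limma adjusted p = 0.096). The 9 cartilage genes that would mark large airway in a piece of lung had no call. Their median deviations ran from -0.116 to 0.122 over the 8 arrays and were 0.096 in WT LPS pool 1. Chad, 1 of them, went the other way there, at 8.31 against 9.06 to 9.82 elsewhere. The summed log2 level of the 9 genes was also lowest in WT LPS pool 1, at 10.472 against 10.557 to 10.91 on the other arrays. Whether the share of large airway differed between arrays was not tested. Of 7 spermatid genes, measured because several axoneme genes are shared with sperm flagella, none fell and Prm1 rose.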

How the data were processed

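The deposited log2 values come from Affymetrix Mouse Gene 1.0 ST arrays, on which the authors ran the Robust Multichip Average, which corrects background, equalizes the arrays' distributions and summarizes probes, so differences in total RNA between lungs are removed. For the tests, limma 3.20.8 is named in the submitters' processing notes. Of 35556 probe sets, the 21218 with exactly 1 symbol in the platform's gene table were tested. Whether that table belongs to the 1.0 version of the array was not settled. Models were fitted over all 8 arrays with R 4.3.3 and limma 3.58.1, with empirical Bayes moderation and Benjamini-Hochberg adjustment over all tested probe sets: an additive model of p52 and LPS, and a 4-group model for single contrasts and the interaction. LPS comparisons and the interaction were called at an adjusted p under 0.05, and p52 comparisons at the logFC cut-off that the study set for rises, applied in both directions with an unadjusted p of at most 0.05. Shares over all genes use 15599 genes with a mean of at least 6, each by its probe set of highest mean. The additive LPS fit was tested on simulated data with noise independent between genes, whereas the axoneme genes varied together between pools. It called 53.7% of the genes made lower by 0.5 log2 and 95.5% of those made lower by 1.

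Members, roles, marker lists and motifs were chosen with earlier results of these data known. Genes given with values on every array were the member of highest mean in each role and the 10 members of smallest p for LPS, and other values shown, such as those of Dnali1, Rsph14, Cfap36, Krt5 and Chad, were picked after they were seen, as were the promoters printed. For each of the 6 pairs of conditions, the deviations of equally numbered pools from the mean of their condition had a correlation of 0.14 to 0.35. On this ground alone the pool numbers were treated as pairing. With 2 pools of 3 mice a group, the number of arrays limits the precision, and p-values measure the spread between pools. Alternatives were other sets of probe sets and levels, averaged probe sets, array weights, other moderation, normalization or centring done again, each state alone, the other call rule, the pool number as a block, a shorter promoter window and each array left out. Leaving out arrays with the block was added after the data were seen.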

Additional observations from a re-analysis of the deposited data

How the results depend on the processing

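Of 301 recomputed counts and medians, 261 stayed within 1.5 times the count or within the spread between pools, whatever their sign. The median for p52 over both LPS states was among these, and it ran from -0.15 to 0.05 with each array left out. The median LPS difference of the axoneme genes was negative under every alternative run. For LPS over both genotypes the calls of Tppp3, Tekt2, Dnah8, Cfap20dc, Cfap20 and Cfap52 were kept under every alternative that used the adjusted p. Under the other call rule, Cfap20dc and Cfap20 among these missed the logFC cut-off of 0.41, at -0.40 and -0.38. The calls of Drc7, Rsph4a, Tekt5 and Dnaaf4 were lost without some arrays, and calls in single genotypes were lost in several fits. With the pool number as a replicate block (paired pools), 36 genes were called for LPS over both genotypes (26.8% of all genes lower). In WT lungs 33 were lower, against 20.4% of all genes, and in CCSP-p52 lungs 5, against 9.52%. For p52 with LPS 1 gene, Cfap126, was higher, against 0.968%. The replicate block changed no call for p52 without LPS, p52 over both states or the interaction. Array weights gave 42 genes for LPS over both genotypes, 41 of them lower against 30.4% of all genes, and 26 in WT lungs against 24.1%. The other call rule gave 25 against 16.6%, 27 in WT lungs against 19% and 3 for the interaction, all positive, against 1.1%. Normalizing again gave 1 gene for p52 with LPS, higher, against 1.1% of all genes. Fitting CCSP-p52 lungs alone gave 1 for LPS, lower, against 0.423%.

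Leaving out each array in turn, the count for LPS over both genotypes ran from 6 (without WT dox pool 1) to 40 (without CCSP-p52 LPS pool 2), where 17.8% and 29.6% of all genes were lower, in WT lungs from 0 (without WT dox pool 2) to 18 (without WT LPS pool 2), against 0.891% and 7.05%, and in CCSP-p52 lungs from 0 (without either CCSP-p52 dox pool) to 5 (without CCSP-p52 LPS pool 2), against 0.0769% to 0.122% and 17.6%. For p52 it ran from 0 to 1 without LPS and from 0 to 10 with LPS, the highest without WT LPS pool 2, where 1.42% of all genes were higher. With the block as well, the LPS count was 13 to 45, at 25 when WT LPS pool 2 was left out and at 44 when CCSP-p52 LPS pool 2 was, against 18.7% to 31.4% of all genes lower. Medians ran from -0.49 to -0.25 for LPS over both genotypes, from -0.70 to -0.29 in WT lungs, from -0.47 to -0.02 in CCSP-p52 lungs, from -0.15 to 0.31 for p52 with LPS and from 0.04 to 0.49 for the interaction. Of 714 recomputed values of named genes 3 changed sign: Dnaaf5 for LPS became 0.0227 with renewed normalization, and for LPS in CCSP-p52 lungs Hydin ran from -0.969 to 0.0274 and Dnaaf5 from -0.0506 to 0.11 without 1 array. The causes of these changes were not tested.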
